A study of Homo sapiens with 18 samples.

Results

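Kinesins are motor proteins that use ATP to walk along microtubules or to take microtubule ends apart, and the kinesin superfamily genes were taken here as every gene whose symbol begins with KIF followed by a number, or is KIFC1, KIFC2 or KIFC3, in both deposited expression tables. That gave 42 genes of the 20365 in the tables. They were sorted by textbook role into 14 mitotic kinesins, 17 transport kinesins and 11 other kinesins, among them ciliary motors and kinesins with less settled roles.

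All libraries came from PC3, a human prostate cancer cell line, and held messenger RNA sequenced with a strand-specific kit. In the first experiment, cells grown in 10% serum carried a lentiviral shRNA against Elongin B (EloB KD), against Elongin C (EloC KD) or a control (Control KD), with 3 libraries each. In the second, cells were treated for 24 h in 2.5% serum with 12,5 µM of a BC-box peptide in its wild-type form (WT peptide), a mutated form (Mutant peptide) or a scrambled order (Scrambled peptide), again with 3 libraries each. Elongin B and Elongin C form a dimer that binds the BC-box motif of other proteins and links them to cullin ubiquitin ligases. The labels do not say whether the replicates were separate cultures, so the p-values measure the spread between these libraries, which may be technical.

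Mitotic kinesins build the spindle, move and align chromosomes and complete cell division, and most of them are made mainly in the second part of the cell cycle. Transport kinesins carry vesicles, organelles and protein complexes along interphase microtubules, usually through light chains or adaptors. In promoters of genes expressed late in the cell cycle, the cell cycle genes homology region (CHR) is bound by MuvB complexes, and CCAAT boxes lying upstream of it are bound by NF-Y.

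Promoter sequences were taken from RefSeq (GRCh38.p14), as windows of 300 bases from 250 before to 50 after a transcription start, and 34 of the 42 kinesins had one. CHR was searched as TTTGAA or TTTAAA and CCAAT as CCAAT, on both strands, so that TTCAAA and ATTGG are the same motifs read from the other strand. No match overlapped another in the kinesin windows. A CHR lay in at least 1 window of 12 of the 14 mitotic kinesins (85.7%), of 2 of 12 transport kinesins (16.7%) and of 3745 of the 15215 genes of the tables that had a window (24.6%). Both a CHR and a CCAAT were found in 10 of the 14 mitotic kinesins (71.4%), in 1 of 12 transport kinesins (8.33%) and in 12.6% of the genes. A gene with several windows was counted even where the motifs lay in different windows. In the kinesins counted, both lay in the same window. Among all 35116 windows, 24.0% held a CHR, 34.6% a CCAAT and 9.27% both. The median GC content was 62.0% for mitotic and 72.7% for transport kinesins, against 62.7% for the genes of the tables, and its part in these shares was not tested. In the 12 mitotic kinesins, the CHR nearest the start began between 55 bases before it and base 25 after it.

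The stretches from 120 bases before to 50 after the start are shown for 4 mitotic kinesins that carry both motifs near the start and rose under the WT peptide (below), for KIF22, which rose there without a CHR, and for KIF21A, a transport kinesin with neither motif. They read 5′ to 3′ on the strand of the gene, and capitals mark CHR and CCAAT matches in either direction. A match is a description of letters, not of a bound site.
KIF20A, chr5:138178992-138179161, plus strand: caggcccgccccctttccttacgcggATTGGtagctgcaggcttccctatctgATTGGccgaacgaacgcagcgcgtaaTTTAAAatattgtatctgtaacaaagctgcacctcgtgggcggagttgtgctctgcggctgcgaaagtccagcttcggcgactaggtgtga
KIF14, chr1:200620702-200620871, minus strand: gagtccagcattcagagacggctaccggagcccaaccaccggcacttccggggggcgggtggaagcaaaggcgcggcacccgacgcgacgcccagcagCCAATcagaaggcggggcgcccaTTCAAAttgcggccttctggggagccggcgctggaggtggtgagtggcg
KIF23, chr15:69414229-69414398, plus strand: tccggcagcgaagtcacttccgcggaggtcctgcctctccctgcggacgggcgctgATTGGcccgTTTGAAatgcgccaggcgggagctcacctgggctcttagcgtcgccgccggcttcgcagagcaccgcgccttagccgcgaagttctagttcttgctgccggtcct
KIF18B, chr17:44947724-44947893, minus strand: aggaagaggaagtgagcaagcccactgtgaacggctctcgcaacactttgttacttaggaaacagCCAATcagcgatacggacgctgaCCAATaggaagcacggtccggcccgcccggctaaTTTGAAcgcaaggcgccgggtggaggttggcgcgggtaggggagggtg
KIF22, chr16:29790631-29790800, plus strand: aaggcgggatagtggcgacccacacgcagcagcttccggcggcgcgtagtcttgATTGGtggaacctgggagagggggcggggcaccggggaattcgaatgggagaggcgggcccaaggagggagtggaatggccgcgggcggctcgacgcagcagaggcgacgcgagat
KIF21A, chr12:39443071-39443240, minus strand: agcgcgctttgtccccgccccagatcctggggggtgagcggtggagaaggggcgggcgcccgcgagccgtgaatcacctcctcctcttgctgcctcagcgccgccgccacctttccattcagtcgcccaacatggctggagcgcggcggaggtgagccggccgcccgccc

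Knockdown libraries held 40.3 to 57.2 M assigned reads and peptide libraries 31.7 to 34.7 M. Values are given as normalised counts, which are read counts per gene divided by a size factor per library, as the authors deposited them. ELOB averaged 536.5 ± 59.0 normalised counts in EloB KD and 3898 ± 1177 in Control KD cells, and ELOC 515.7 ± 36.6 in EloC KD and 4480 ± 355 in Control KD cells (SD, n = 3 each). The targeted genes thus followed the labels. The epithelial markers KRT8, KRT18 and EPCAM were present in all groups, while the prostate marker KLK3 was at 0 in every library. Summed over 7 prostate epithelial markers, libraries held 18925 to 22015 normalised counts in EloB KD, 11512 to 15568 in EloC KD and 28806 to 32473 in Control KD cells, and over 5 fibroblast markers 600.3 to 951.4, 2089 to 2630 and 658.6 to 887.5 in the same groups. Over 4 endothelial markers the sums were 2802 to 3873, 2634 to 3827 and 3520 to 5668. Single markers went both ways: of 4 tested fibroblast markers, EloC KD against Control KD called 2 higher and 2 lower (all genes: 21.3% and 21.2%). Of 5 tested prostate markers, EloB KD against Control KD called 1 higher and 1 lower (all genes: 9.34% and 11.2%). The part of these markers in the knockdown results was not tested. EloB KD replicate 1 stood apart in its mitotic kinesins: 10 of the 13 tested, against 2 of the 14 tested transport kinesins, had their lowest value of the 9 knockdown libraries in it. The share of all genes with their lowest value in it was not determined, and other gene lists were low there too (below).

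Of the 42 kinesins, 34 passed the filter in each experiment, a mean of at least 10 normalised counts over its 9 libraries: 13 of 14 mitotic, 14 of 17 transport and 7 of 11 other kinesins. KIF2B among the mitotic, KIF1A, KIF5A and KIF21B among the transport, and KIF6, KIF19, KIF25 and KIF26B among the other kinesins did not, with at most 12 reads in any library. Normalised counts were compared between genes only as RPKM, which divides reads by annotated exon length and by library size. The most abundant kinesins were KIF5B, the ubiquitous conventional kinesin heavy chain, with 39.7 ± 0.757 RPKM in Control KD and 34.1 ± 1.0 RPKM in Scrambled peptide cells, and KIF3B, a subunit of heterotrimeric kinesin-2, with 30.2 ± 2.40 and 27.6 ± 1.09 RPKM in the same groups (SD, n = 3 each). Next in Control KD cells came KIF20A with 26.9 ± 3.83 RPKM, then KIF1C, KIF4A, KIF2A, KIF11 and KIF2C between 22.7 and 21.1 RPKM, where neighbours differed by less than the larger of their SDs. Several mitotic kinesins thus lay at the level of the common transport motors in these dividing cells. The neuronal motors KIF1A and KIF5A stayed below 0.03 RPKM in every group mean, and KIF17 was near 0.3 RPKM in both control groups.

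**Figure D1:**
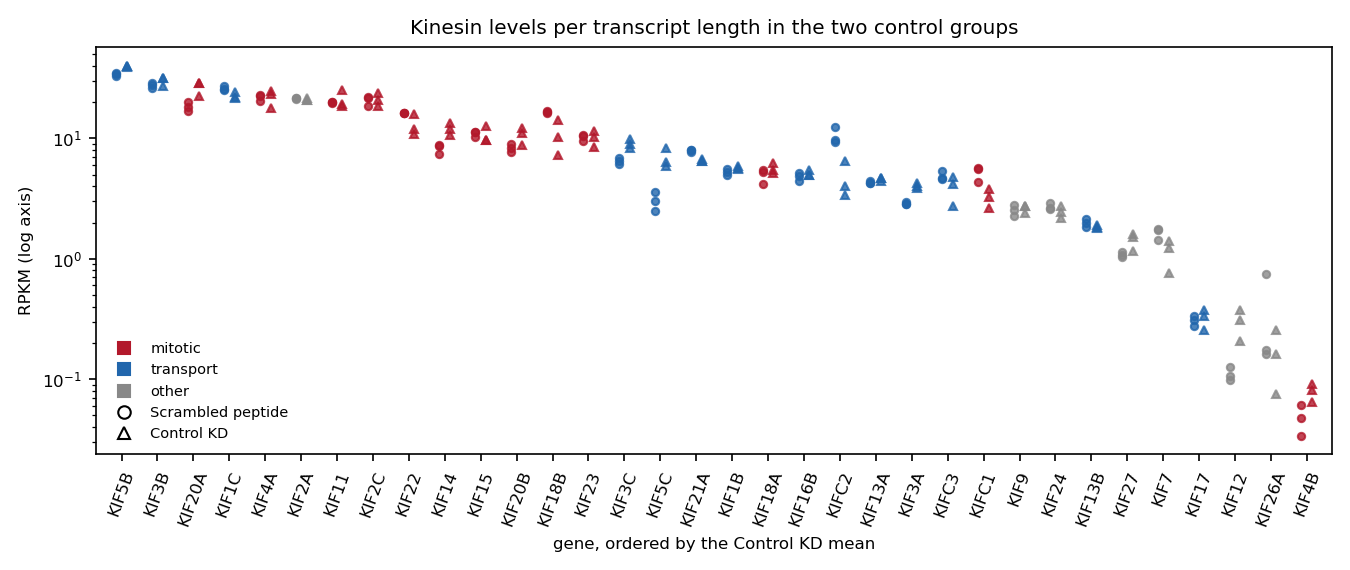
Level of each kinesin per transcript length (RPKM, log axis) in the 3 Scrambled peptide libraries (circles) and the 3 Control KD libraries (triangles), with genes ordered by the Control KD mean and coloured by class; members with a Control KD mean below 0.05 RPKM are left out. KIF5B and KIF3B lead, and mitotic and transport kinesins share the range from about 3 to 30 RPKM.

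Whether the BC-box peptide changed kinesin expression was tested first for the WT against the Scrambled peptide. Mitotic kinesins rose together: 9 of the 13 tested passed (adjusted p below 0.05 in limma's moderated test, Benjamini-Hochberg over all 13105 genes), none of them lower, where 0.839% of all genes passed as higher, 0.595% as lower and 1.43% in either direction. The median log2 fold change of the 12 besides KIF4B, on the scale of log2(normalised count + 1), was 0.48, against 0 for all genes. Of the transport kinesins 0 of 14 passed in limma, with a median of 0.04, 2 at an unadjusted p below 0.05, none in edgeR and 1, KIF5B, in DESeq2. In bulk RNA, more cells in a given phase and more RNA per cell cannot be told apart.

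KIF20A, which brings the chromosomal passenger complex to the central spindle for cytokinesis, changed most among the called members. It had 4178, 4144 and 4137 normalised counts in WT peptide cells, 3254, 3047 and 3318 in Mutant peptide cells and 2676, 2211 and 2424 in Scrambled peptide cells. All 3 groups stood apart, with the Mutant peptide between the others. Its log2 fold change for WT against Scrambled peptide was 0.77 ± 0.07 (SE; 1.71-fold; adjusted p = 0.0015). KIF14, which recruits citron kinase to the midbody, had 3160, 3085 and 3343 normalised counts in WT peptide cells, 2692, 2726 and 2774 in Mutant peptide cells and 2160, 1815 and 2128 in Scrambled peptide cells. The same order held without overlap, and the log2 fold change for WT against Scrambled peptide was 0.66 ± 0.07 (adjusted p = 0.00217). KIF23, the motor of the centralspindlin complex, had 3185, 3268 and 3294 normalised counts with the WT, 2756, 2759 and 2822 with the Mutant and 2368, 2088 and 2305 with the Scrambled peptide. It rose by 0.53 ± 0.05 on the log2 scale under the WT peptide (adjusted p = 0.0015), so all 3 of these cytokinesis motors were higher in every WT peptide library than in any Scrambled peptide library.

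KIF18B, which shortens astral microtubules, had 3442, 3682 and 3665 normalised counts with the WT, 2970, 3168 and 3008 with the Mutant and 2651, 2514 and 2568 with the Scrambled peptide. Its log2 fold change was 0.48 ± 0.05 for WT against Scrambled peptide (adjusted p = 0.0015). KIF2C, a depolymerase that corrects faulty kinetochore attachments, reached 3764, 3748 and 3749 with the WT, against 3004, 3036 and 3284 with the Mutant and 2710, 2278 and 2640 with the Scrambled peptide. The chromokinesin KIF4A, which sets the length of the central spindle, rose by 0.54 ± 0.06 (adjusted p = 0.0038) and KIF2C by 0.57 ± 0.07 (adjusted p = 0.00358). The chromokinesin KIF22, which pushes chromosome arms outward, rose least of the called members, by 0.34 ± 0.04 (adjusted p = 0.00307), with 2915, 3031 and 3001 normalised counts with the WT, 2640, 2643 and 2738 with the Mutant and 2349, 2360 and 2348 with the Scrambled peptide. The spindle-pole-separating motor KIF11 (0.43 ± 0.05, adjusted p = 0.0045) and KIF15, which can stand in for it (0.43 ± 0.05, adjusted p = 0.0047), were also higher.

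KIF18A, which damps chromosome movements at the metaphase plate, had 1066, 961.7 and 1213 normalised counts with the WT, 869.5, 813.9 and 944.3 with the Mutant and 853.3, 651.9 and 819.4 with the Scrambled peptide. Its WT and Scrambled values did not overlap, but it missed the threshold (log2 fold change 0.48 ± 0.12, adjusted p = 0.088). The minus-end-directed KIFC1 (0.36 ± 0.10, adjusted p = 0.138) and the abscission motor KIF20B (0.31 ± 0.10, adjusted p = 0.179) missed it too. KIF4B, a near-identical copy of KIF4A at 4.92 to 20.4 normalised counts, was uncertain because reads of the 2 copies may be split between them (0.92 ± 0.42, adjusted p = 0.378). Same-numbered libraries deviated together, and with the replicate number as a block KIF18A, KIFC1 and KIF20B also passed, at adjusted p of 7.21e-05, 0.00401 and 0.000157, making 12 of 13 higher where 7.96% of all genes were called higher. DESeq2 called 11 of the 13 higher, against 2.27% of all genes.

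**Figure D2:**
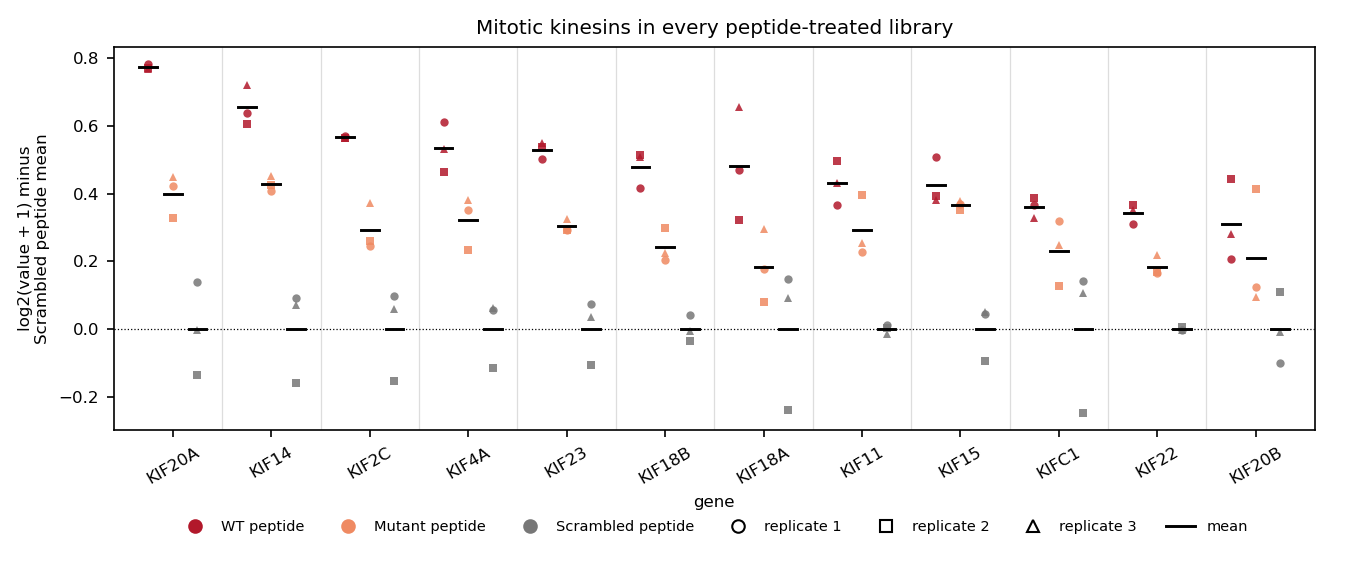
Log2(normalised count + 1) of 12 mitotic kinesins in each peptide library, as the difference from the gene's Scrambled peptide mean, with WT peptide on the left, Mutant peptide in the middle and Scrambled peptide on the right of each gene; shapes mark replicate numbers and bars the means. WT peptide means run from 0.31 (KIF20B) to 0.77 (KIF20A), and Mutant peptide means lie between them and 0. KIF4B is left out for its low level.

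KIF4B passed the filter on low values only through the WT peptide libraries, so it was left out of counts of direction. In each of the 12 mitotic kinesins besides KIF4B every WT peptide value exceeded every Scrambled peptide value, where 10.3% of all genes did so. Summed over the class, the mitotic kinesins took 1084, 1097 and 1099 RPM (reads scaled to library size) in WT peptide cells, 937.3, 963.8 and 964.0 in Mutant peptide cells and 799.1, 738.2 and 788.9 in Scrambled peptide cells. The transport kinesins took 1099, 1083 and 1076 RPM with the WT, 1061, 1092 and 1063 with the Mutant and 1052, 1071 and 1053 with the Scrambled peptide. The summed mitotic class therefore followed the order WT, Mutant, Scrambled without overlap. The transport sums were also all higher with the WT than with the Scrambled peptide, but lay within a few percent of each other. Those of the Mutant peptide overlapped both.

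The Mutant peptide gave values between those of the other peptides, and this order was checked gene by gene. Every WT value exceeded every Mutant value, and every Mutant value every Scrambled value, in 8 of the 13 mitotic kinesins (KIF2C, KIF4A, KIF14, KIF15, KIF18B, KIF20A, KIF22 and KIF23), in 0 of 14 transport kinesins, in 0 of 7 other kinesins, and in 0.954% of all genes. The 2 comparisons below and the one above share libraries, so they are not independent of each other.

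For the Mutant against the Scrambled peptide, limma called no gene of 13105 (0% in either direction, higher or lower), and so none of the 13 mitotic kinesins; at an unadjusted p below 0.05 there were 1142 genes and 10 mitotic kinesins. The median of the 12 mitotic kinesins besides KIF4B was 0.29, with 12 positive values, and 9 members were higher without overlap, where 7.02% of all genes were. KIF14 (0.43 ± 0.07, adjusted p = 0.0739), KIF15 (0.37 ± 0.05, adjusted p = 0.0739) and KIF20A (0.40 ± 0.07, adjusted p = 0.0912) came closest, and passed with the replicate block. edgeR called no gene, DESeq2 called 184 genes, among them 9 mitotic kinesins (0.618% of all genes higher), and the fit with the replicate block called 10 mitotic kinesins (3.72% of all genes higher), so this call depended on the test used. No transport kinesin passed in limma, edgeR or DESeq2 (1 at an unadjusted p below 0.05), and their median was 0.04; the block called KIFC3 lower (−0.21, adjusted p = 0.041).

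For the WT against the Mutant peptide, limma again called no gene (0% in each direction), with 898 genes and 9 mitotic kinesins at an unadjusted p below 0.05. The median of the 12 mitotic kinesins besides KIF4B was 0.22, with 12 positive values, and 10 members were higher without overlap, where 6.4% of all genes were. KIF20A differed most among the well-expressed members (0.37 ± 0.07, adjusted p = 0.189; adjusted p = 0.000426 with the replicate block), and KIF15 least (0.06 ± 0.05, adjusted p = 0.931). edgeR called none, DESeq2 called 5 mitotic kinesins (0.351% of all genes higher), and the block 8 (2.4% of all genes higher). No transport kinesin passed in any of the 3 tools (4 at an unadjusted p below 0.05), and the block called KIF1C (adjusted p = 0.0389) and KIFC3 (adjusted p = 0.0162).

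Among transport kinesins, KIF17, the homodimeric kinesin-2, had 22.5, 39.4 and 27.5 normalised counts with the WT, 39.8, 44.3 and 39.7 with the Mutant and 47.0, 41.4 and 50.2 with the Scrambled peptide. All WT values lay below all Scrambled values, but the difference did not pass (−0.65 ± 0.22, adjusted p = 0.216; 0.0493 with the block). KIF5B had 7603, 7121 and 7504 normalised counts with the WT, 6865, 6861 and 6986 with the Mutant and 6791, 6459 and 6885 with the Scrambled peptide. This was 0.14 ± 0.04 on the log2 scale for WT against Scrambled peptide (adjusted p = 0.142, or 0.00504 with the block). KIF5B was the only transport kinesin with both a CHR and a CCAAT in its promoter window. Its CHR began 140 bases before the start and lay upstream of its CCAAT, which began 59 bases before it. The part of either motif in the KIF5B values was not tested. KIF13A, which recycles endosomal cargo, differed by 0.00 ± 0.05 and KIF3B by −0.02 ± 0.06. Of the 7 other kinesins none passed in limma, edgeR or DESeq2, none had an unadjusted p below 0.05, and their median was −0.02; the block called KIF24 (0.21, adjusted p = 0.0246) and KIF26A (0.67, adjusted p = 0.0181) higher.

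Genes that work with the mitotic kinesins were examined in the same comparison. Of 24 tested spindle and cytokinesis partners, 15 rose and none fell, with a median of 0.43, where 0.839% of all genes passed as higher. CCNB1, the mitotic cyclin, rose by 0.87 ± 0.07 and PLK1, a mitotic kinase, by 0.74 ± 0.06 (adjusted p = 0.0015 each). DLGAP5, a spindle assembly factor, rose by 0.71 ± 0.07 (adjusted p = 0.0015). CENPE, a kinetochore motor of the same superfamily whose symbol the rule does not match and which was named after its values were seen, rose by 0.82 ± 0.09 (adjusted p = 0.00349). The proliferation markers MKI67 (0.54 ± 0.05, adjusted p = 0.0015) and TOP2A (0.62 ± 0.07, adjusted p = 0.00328) rose in the same comparison. FOXM1, a transcription factor of late cell cycle genes, rose by 0.51 ± 0.08 (adjusted p = 0.0142), the only one of 16 genes of the CHR-binding and cell cycle transcription list to pass. The part of a shift in cell cycle phase in the kinesin values was not tested.

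The remaining lists were read against the 0.839% of all genes that passed as higher and the 0.595% that passed as lower. Of 15 replication genes, which peak earlier in the cycle, 1 fell (MCM6, a subunit of the replicative helicase, by 0.28 on the log2 scale, adjusted p = 0.0319) and none rose, with a median of −0.09. Among 11 tubulins 2 rose, TUBB4B (0.33 ± 0.05, adjusted p = 0.0142) and TUBA1B (0.36 ± 0.06, adjusted p = 0.0269), with a median of 0.19. None of 19 kinesin light chains and adaptors and none of 22 dynein and dynactin genes passed in limma, edgeR or DESeq2, with 1 and 3 at an unadjusted p below 0.05 and medians of −0.03 and 0.04.

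**Figure D3:**
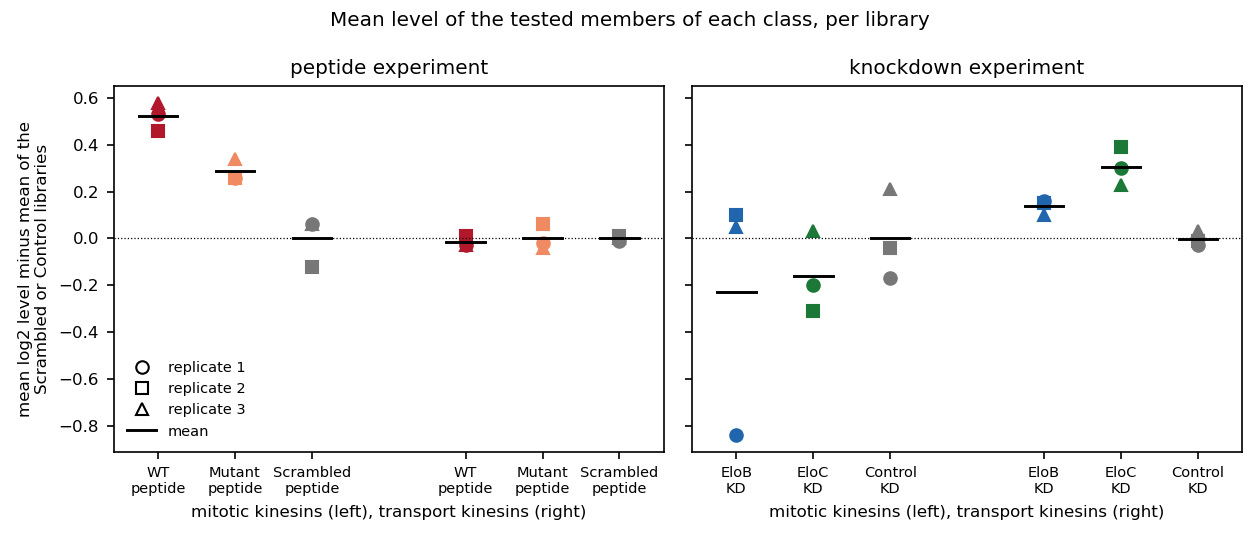
Mean log2 level of the tested mitotic (13) and transport (14) kinesins in each library, minus the mean of the Scrambled peptide or Control KD libraries; groups run from the treated or knocked-down ones on the left to the control on the right, shapes mark replicate numbers and bars the means. Mitotic scores of WT peptide libraries lie between 0.46 and 0.58 and those of Mutant peptide libraries between 0.26 and 0.34, while EloB KD replicate 1 stands at −0.84 and the other EloB KD libraries at 0.10 and 0.05. The mitotic scores include KIF4B, which passed the peptide filter only through the WT peptide libraries, so the WT peptide scores are not independent of that filter.

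In the knockdown experiment most called kinesins were transport or other kinesins. Of the 34 tested, 12 (35.3%) were called in EloC KD and 4 (11.8%) in EloB KD against Control KD, below the shares of all genes given for each comparison. The EloB KD and EloC KD comparisons share the Control KD libraries.

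EloC KD against Control KD called 8 of 14 transport kinesins, 7 higher and 1 lower, with a median of 0.29, where 21.3% of all genes were called higher, 21.2% lower and 42.5% in either direction. KIF13A had 5517, 5831 and 4313 normalised counts in EloC KD cells and 2628, 2603 and 2392 in Control KD cells. It was 2.04-fold higher, or 1.03 ± 0.11 on the log2 scale (adjusted p = 8.53e-05), and the groups did not overlap. KIF21A, which restrains microtubule growth at the cell edge, had 5175, 5571 and 4724 normalised counts in EloC KD cells and 3280, 3314 and 3337 in Control KD cells (0.64 ± 0.09, adjusted p = 0.000262). KIFC2, a minus-end-directed motor, had 1926, 1985 and 2125 in EloC KD cells and 753.7, 904.5 and 1405 in Control KD cells (1.03 ± 0.23, adjusted p = 0.00511). The Control KD values of KIFC2 were widely spread, yet all lay below the EloC KD values.

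KIFC3, a minus-end motor of adherens junctions and Golgi, rose by 0.74 ± 0.20 (adjusted p = 0.013; 0.0544 without EloC KD replicate 2). KIF17 had 135.6, 132.9 and 116.8 normalised counts in EloC KD cells and 74.4, 58.0 and 82.8 in Control KD cells (0.84 ± 0.23, adjusted p = 0.0136). KIF13B, the sister motor of KIF13A, had 1402, 1579 and 1169 in EloC KD cells and 1004, 1069 and 1006 in Control KD cells (0.42 ± 0.12, adjusted p = 0.0167). The vesicle motor KIF1C rose by 0.27 ± 0.09 (adjusted p = 0.0276) but lost the call without EloC KD replicate 2, EloC KD replicate 3, Control KD replicate 1 or Control KD replicate 2 (adjusted p = 0.0643 to 0.1), or with quantile scaling (0.0589). KIF5B fell, with 8992, 8951 and 9190 normalised counts in EloC KD cells and 11735, 11485 and 11634 in Control KD cells (−0.36 ± 0.10, adjusted p = 0.0112). Without Control KD replicate 2 KIF17 had an adjusted p of 0.054, and without EloC KD replicate 2 KIF13B had one of 0.0665. Thus the most abundant transport motor fell while the other called ones rose. KIF3B, KIF3A, KIF3C and KIF1B, also less abundant than KIF5B, had negative log2 fold changes and were not called in the main fit. The class sum stood at 1203, 1221 and 1176 RPM in EloC KD cells and 1101, 1095 and 1108 in Control KD cells. With the replicate block KIF5C (log2 fold change 0.30, adjusted p = 0.0248) also passed as higher, and KIF3A (−0.28, adjusted p = 0.0107) and KIF3B (−0.22, adjusted p = 0.0152), the paired subunits of heterotrimeric kinesin-2, as lower.

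EloB KD against Control KD called 4 of 14 transport kinesins, 2 higher and 2 lower, with a median of 0.15, where 9.34% of all genes were called higher, 11.2% lower and 20.5% in either direction. KIF13B had 1756, 1802 and 1554 normalised counts in EloB KD cells and 1004, 1069 and 1006 in Control KD cells (0.73 ± 0.12, adjusted p = 0.00231). KIF5C, a conventional kinesin heavy chain best known from neurons, had 1787, 1880 and 1696 in EloB KD cells and 3856, 2728 and 2877 in Control KD cells (−0.80 ± 0.14, adjusted p = 0.00326). Both changes showed no overlap and held without EloB KD replicate 1 (adjusted p = 0.01 and 0.0124). KIF3B had 11546, 12934 and 11041 normalised counts in EloB KD cells and 9674, 9671 and 8220 in Control KD cells (0.37 ± 0.11, adjusted p = 0.0332). KIF5B had 8111, 10376 and 9924 in EloB KD cells and 11735, 11485 and 11634 in Control KD cells (−0.30 ± 0.10, adjusted p = 0.0461). These 2 calls were lost without EloB KD replicate 1, at adjusted p of 0.0644 for KIF3B and 0.111 for KIF5B. KIF3B also lost its call without EloB KD replicate 2, EloC KD replicate 1, Control KD replicate 2 or Control KD replicate 3 (adjusted p = 0.0502 to 0.114). KIF5B lost its call without any other single library but EloB KD replicate 2 (adjusted p = 0.0566 to 0.103). KIF5B lost it as well with no filter (0.0568), TMM scaling (0.0583), edgeR (0.0641), only the groups compared (0.0852) and quantile scaling (−0.18, adjusted p = 0.175). With the replicate block KIF17 (0.57, adjusted p = 0.038) and KIFC3 (0.46, adjusted p = 0.0119) passed as higher.

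**Figure D4:**
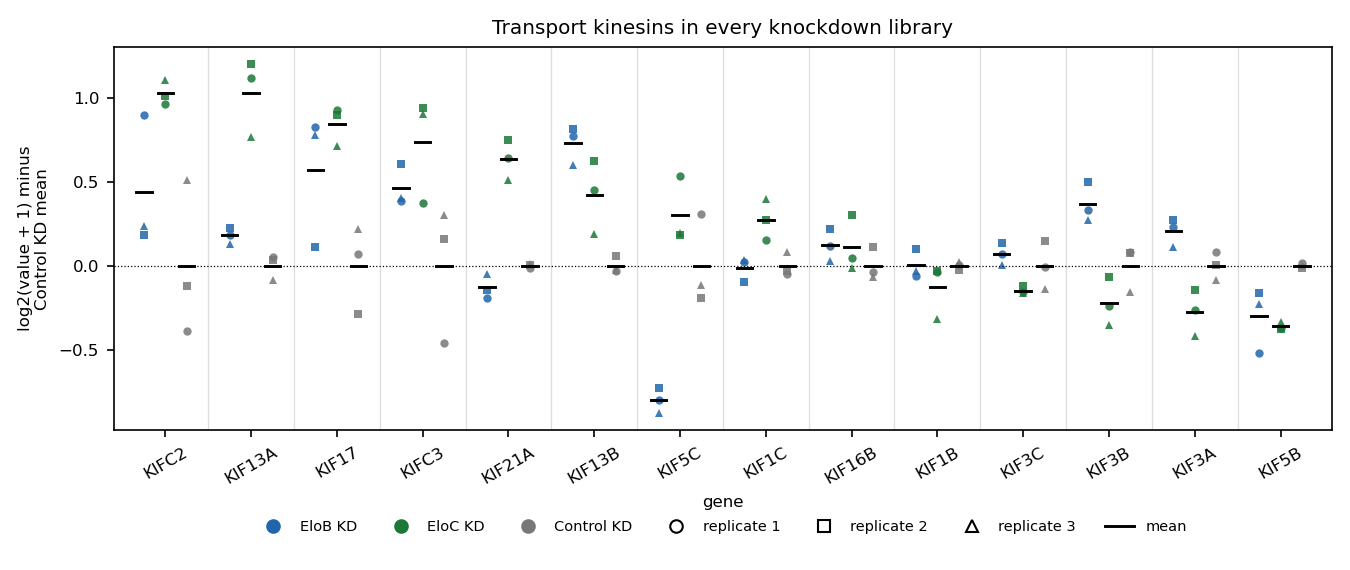
Log2(normalised count + 1) of the 14 tested transport kinesins in each knockdown library, as the difference from the gene's Control KD mean, with EloB KD on the left, EloC KD in the middle and Control KD on the right of each gene; shapes mark replicate numbers and bars the means. Genes are ordered by the EloC KD mean, from 1.03 for KIFC2 and KIF13A at the left to −0.36 for KIF5B at the right, and KIF5C is lowest in EloB KD at −0.80.

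The knockdowns also differed from each other. EloB KD against EloC KD called 6 transport kinesins, 2 higher and 4 lower, with a median of −0.13, where 22.3% of all genes were called higher, 23.8% lower and 46.1% in either direction. KIF5C differed most, at 1787, 1880 and 1696 normalised counts in EloB KD cells and 4519, 3534 and 3561 in EloC KD cells (−1.11 ± 0.14, adjusted p = 0.000153). KIF13A (−0.85 ± 0.11, adjusted p = 0.000189), KIF21A (−0.77 ± 0.09, adjusted p = 6.65e-05) and KIF1C (−0.29 ± 0.09, adjusted p = 0.021) were lower in EloB KD as well. The kinesin-2 subunits KIF3B (0.59 ± 0.11, adjusted p = 0.00124) and KIF3A (0.48 ± 0.10, adjusted p = 0.00331), which form one motor for ciliary and vesicle transport, were both higher in EloB KD. KIF3A had 1613, 1664 and 1488 normalised counts in EloB KD cells, 1148, 1244 and 1028 in EloC KD cells and 1454, 1383 and 1297 in Control KD cells. The call of KIF1C was lost without EloB KD replicate 2, EloC KD replicate 2 or EloC KD replicate 3 (adjusted p = 0.0501 to 0.08), and with quantile scaling (−0.15, adjusted p = 0.246). The replicate block added KIF3C (0.22, adjusted p = 0.0216) and KIF13B (0.31, adjusted p = 0.0105) as higher and KIFC2 (−0.59, adjusted p = 0.0406) as lower in EloB KD.

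Among the other kinesins, 2 ciliary ones differed between the knockdowns by about 2-fold. KIF9, a motor of motile cilia, had 1075, 924.9 and 952.6 normalised counts in EloB KD cells, 461.1, 458.8 and 540.0 in EloC KD cells and 703.7, 803.5 and 787.7 in Control KD cells. KIF27, a relative of the Hedgehog-pathway kinesin KIF7, had 557.2, 484.1 and 414.7 in EloB KD cells, 233.5, 228.3 and 198.9 in EloC KD cells and 410.7, 389.0 and 291.0 in Control KD cells. In both genes the 3 groups did not overlap, with Control KD in the middle. The share of all genes in this order was not determined, but separation of 2 groups was common. Of 13764 genes, 3727 were higher without overlap in EloB KD than in EloC KD, and 2589 than in Control KD. Lower values without overlap in EloC KD than in Control KD were found in 27.2% of all genes. EloC KD against Control KD called KIF9 (−0.65 ± 0.12, adjusted p = 0.00139) and KIF27 (−0.71 ± 0.17, adjusted p = 0.00699) lower and KIF2A, a microtubule depolymerase, higher (0.24 ± 0.08, adjusted p = 0.0271). EloB KD against Control KD called none of the 7 in limma (2 at an unadjusted p below 0.05), while edgeR and DESeq2 called 1 each and the replicate block KIF9 (0.36, adjusted p = 0.023; 0.0515 without the block) and KIF27 (0.42, adjusted p = 0.012; 0.107 without the block). EloB KD against EloC KD called KIF27 (1.13 ± 0.17, adjusted p = 0.000417), KIF9 (1.02 ± 0.12, adjusted p = 8.26e-05) and KIF12 (0.99 ± 0.32, adjusted p = 0.0272) higher and KIF2A lower (−0.21 ± 0.08, adjusted p = 0.0419). The replicate block added KIF7 (0.51, adjusted p = 0.0359) and KIF24 (0.34, adjusted p = 0.0153) as higher in EloB KD. Leaving out 1 library ended the calls of KIF2A and KIF12 in several cases. For KIF2A in EloC KD this was so without Control KD replicate 2, Control KD replicate 3 or EloC KD replicate 1 (adjusted p = 0.0695 to 0.1). KIF2A lost its call between the knockdowns without any one EloB KD or EloC KD library or Control KD replicate 2 (adjusted p = 0.0543 to 0.144) or with quantile scaling (−0.10, adjusted p = 0.282). KIF12 lost its call without EloB KD replicate 1, EloC KD replicate 2 or EloC KD replicate 3 (adjusted p = 0.0642 to 0.103). Exons of KIF9 and KIF27 overlap antisense genes over 1048 and 789 bases, and those of KIFC2, KIF13B and KIFC3 over 791, 864 and 538 bases. The strand setting of the counting is not given in the sources used here, so reads of the antisense genes may be included.

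Mitotic kinesins changed little in the knockdowns beyond their spread, which was wider than under the peptides. The median SD of a mitotic kinesin within a group was 0.52 in EloB KD, 0.19 in EloC KD and 0.22 in Control KD on the log2 scale, against 0.09, 0.14 and 0.09 for transport kinesins in the same groups. EloB KD against Control KD called none of 13 in limma, edgeR or DESeq2, with 2 at an unadjusted p below 0.05 and a median of −0.10. The EloB KD libraries were spread widely: KIF20A had 2368, 5025 and 4762 normalised counts in EloB KD cells and 4441, 5765 and 5660 in Control KD cells, and KIF4A had 2518, 5335 and 5201 in EloB KD cells and 4071, 5280 and 5541 in Control KD cells. In EloB KD replicate 1, mitotic kinesins stood at 16.3% to 76.9% of the mean of the other EloB KD libraries, with a median of 53.9%. The lowest share was that of KIF4B, which had at most 19 reads in any knockdown library. Spindle partners, replication genes and tubulins were also low in EloB KD replicate 1, at −0.55, −0.62 and −0.61 in mean log2 level relative to Control KD. The other EloB KD libraries stood at 0.08 to 0.15, 0.05 to 0.11 and −0.29 to −0.28. Low replication genes were not particular to this library. They stood at −0.60 and −0.63 in EloC KD replicates 1 and 2, and at −0.30 in Control KD replicate 1. Without EloB KD replicate 1 the mitotic median was 0.10 and KIF18A passed as higher (0.48, adjusted p = 0.019). With the replicate-1 libraries of all 3 groups left out, the mitotic median was 0.00, none passed, and KIF18A had an adjusted p of 0.0539. With the replicate block KIF20B passed as lower (−0.41, adjusted p = 0.0372).

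EloC KD against Control KD called 1 mitotic kinesin. KIF20B had 2360, 1550 and 2267 normalised counts in EloC KD cells and 3800, 3026 and 4065 in Control KD cells, without overlap (−0.83 ± 0.18, adjusted p = 0.00395). The mitotic median was −0.21, and 4 members were lower without overlap (KIF14, KIF15, KIF20A and KIF20B), where 27.2% of all genes were. Directions were mixed within the class: KIF20A had 3941, 3180 and 4425 normalised counts in EloC KD cells and 4441, 5765 and 5660 in Control KD cells (−0.46 ± 0.25, adjusted p = 0.165). KIF18B had 3196, 2999 and 3982 in EloC KD cells and 1683, 2395 and 3234 in Control KD cells (0.52 ± 0.24, adjusted p = 0.111; 0.00726 with the replicate block). Without EloB KD replicate 1, which enters the shared estimate of the spread, 5 mitotic kinesins passed: KIF14, KIF15, KIF20A and KIF20B lower and KIF18A higher. With the replicate-1 libraries of all 3 groups left out, 3 passed.

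EloB KD against EloC KD called no mitotic kinesin in limma, edgeR or DESeq2 (1 at an unadjusted p below 0.05), with a median of −0.06. Without EloB KD replicate 1 the median was 0.25 and KIF2C (0.58, adjusted p = 0.00705), KIF14 (0.46, adjusted p = 0.0193) and KIF20B (0.54, adjusted p = 0.0459) passed as higher in EloB KD. With the replicate block KIF20B passed as higher (0.42, adjusted p = 0.0224) and KIF18B as lower (−0.46, adjusted p = 0.0127).

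In EloC KD against Control KD, 5 of 24 spindle and cytokinesis partners fell and 1 rose, a share no higher than that of all genes (21.2% lower and 21.3% higher). BIRC5, the survivin subunit of the chromosomal passenger complex, had 5122, 4216 and 7421 normalised counts in EloC KD cells and 11575, 14778 and 17836 in Control KD cells (−1.42 ± 0.28, adjusted p = 0.00248). KIFBP, which holds several kinesin motor domains off microtubules, had 4027, 3527 and 4108 in EloC KD cells and 6445, 5982 and 6063 in Control KD cells (−0.67 ± 0.10, adjusted p = 0.000452). Of 15 replication genes 6 fell and none rose, where 21.2% of all genes fell and 21.3% rose, and MKI67 fell (−0.96 ± 0.23, adjusted p = 0.00726). Of 16 genes of the CHR-binding and cell cycle transcription list, 3 rose and 3 fell. CDKN1A, which blocks cyclin-dependent kinases, was higher (1.43 ± 0.25, adjusted p = 0.00109) and RBL2, a pocket protein of the DREAM repressor at CHR promoters, lower (−1.62 ± 0.14, adjusted p = 3e-05).

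Of 19 kinesin light chains and adaptors, EloB KD against Control KD called 2 higher and 4 lower, where 20.5% of all genes were called in either direction, and EloC KD against Control KD 2 higher and 4 lower, where 42.5% were. In EloB KD the kinesin-1 adaptor FEZ2 (−1.0 ± 0.08, adjusted p = 4.9e-05) was lower, and TRAK1 (−0.58 ± 0.08, adjusted p = 0.00075) and TRAK2 (−0.64 ± 0.10, adjusted p = 0.00206), which couple mitochondria to kinesin-1, were lower as well. The light chain KLC2 was higher in EloB KD (0.43 ± 0.11, adjusted p = 0.0231) and in EloC KD (0.75 ± 0.11, adjusted p = 0.000495). Of 11 tubulins 4 fell in EloB KD and none rose, where 11.2% of all genes fell, led by TUBA1A, with 3773, 3986 and 3647 normalised counts in EloB KD cells and 8968, 8587 and 6135 in Control KD cells (−1.04 ± 0.14, adjusted p = 0.000699). Of 22 dynein and dynactin genes, 2 rose and 3 fell in EloB KD and 6 rose and 4 fell in EloC KD, close to the shares of all genes called (20.5% in EloB KD and 42.5% in EloC KD).

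**Figure D5:**
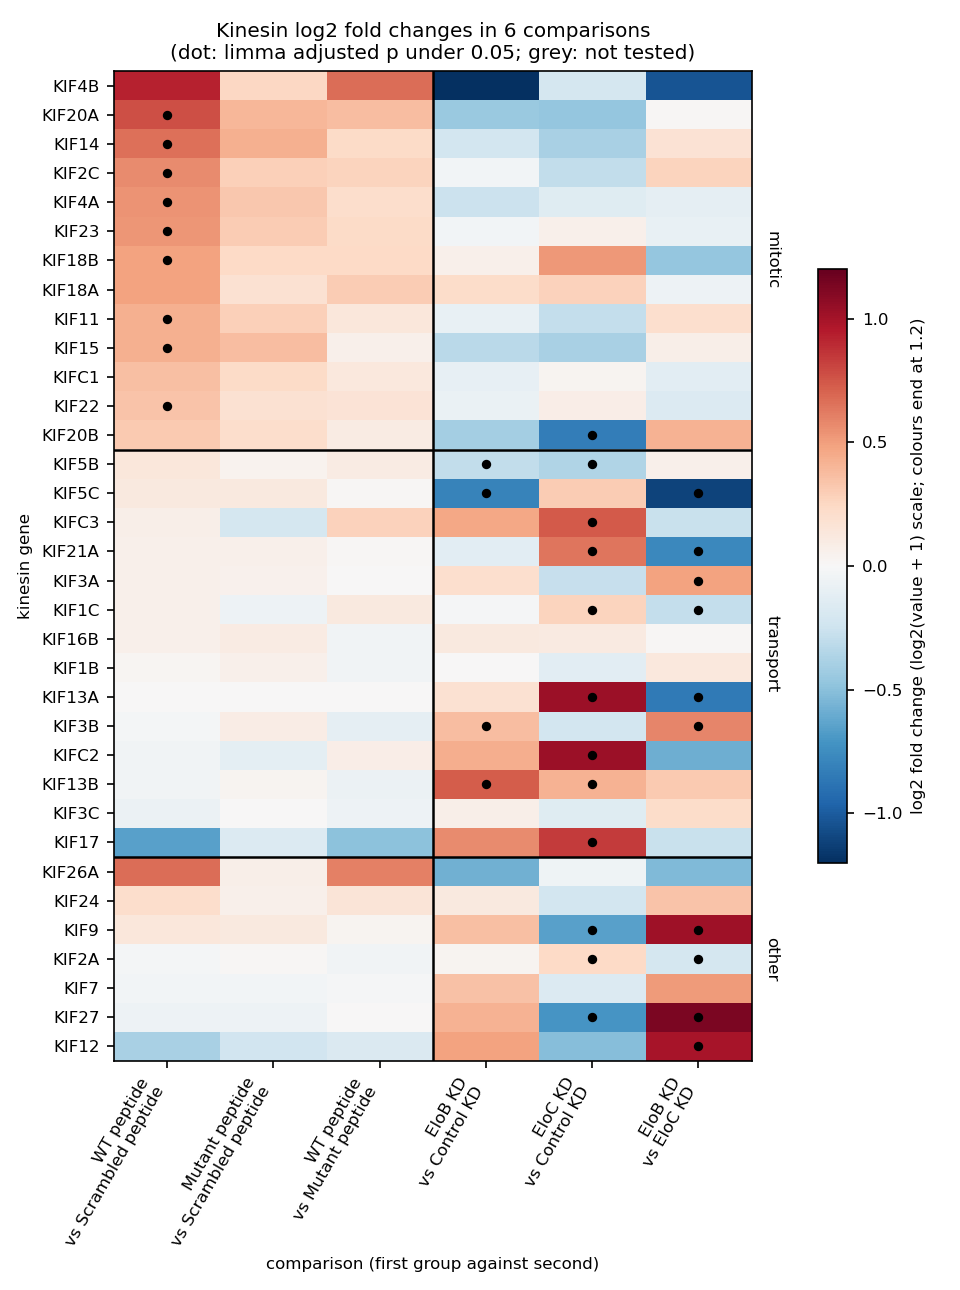
Log2 fold change of the 34 tested kinesins (rows, by class) in the 6 comparisons (columns, first group against second); red is higher and blue lower in the first group, colours end at 1.2, and dots mark an adjusted p below 0.05 in limma. The dots of the peptide experiment all lie on mitotic kinesins for WT against Scrambled peptide (9), and those of the knockdowns lie mostly on transport and other kinesins, with KIF20B in EloC KD as the single mitotic one.

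The authors' deposited tables of differential expression, which cover 4 of the 6 comparisons, were set beside these calls. At an adjusted p below 0.05 in the authors' deposited table, 10 mitotic kinesins were higher for the WT against the Scrambled peptide, the 9 called here and KIF18A. For EloC KD against Control KD the authors' deposited table called 13 kinesins, the 12 called here and KIF3A, and for EloB KD against Control KD 5, the 4 called here and KIF9. For EloB KD against EloC KD the authors' deposited table called 11, the 10 called here and KIF13B, and no gene called in both had the opposite sign.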

How the data were processed

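Messenger RNA of PC3 cells was sequenced in 9 knockdown and 9 peptide libraries. Per the submitters' processing notes, featureCounts, DESeq2 and the genome build hg38 were used; versions, aligner and strand setting are not given in the sources used here. The deposited expression values are a signal per gene, read counts that the authors divided by a size factor per library, and 100% of them could be turned back into whole reads (tolerance 0.05 reads). The authors' deposited comparison tables hold log2 fold changes and adjusted p-values. No sample column was left unused (0).

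Genes with a mean of at least 10 normalised counts over the 9 libraries of an experiment were tested on log2(normalised count + 1) with limma 3.58.1 (R 4.3.3), which gave all adjusted p-values unless another tool is named, with all 3 groups of the experiment in one fit, Benjamini-Hochberg adjustment over all tested genes and a threshold of 0.05. The 2 tables were normalised separately and never tested against each other. edgeR 4.0.16 and DESeq2 1.42.0 on the recovered reads, pseudocounts of 0.5 and 5, no filter or one at 50, TMM or quantile scaling, a replicate block, only the groups compared, each library left out, and a threshold of 0.01 were alternatives; leaving out all libraries of replicate 1 (knockdown) or replicate 2 (peptide) was chosen after seeing the data. Same-numbered libraries deviated together, with correlations of 0.236 to 0.566 (knockdown) and 0.254 to 0.715 (peptide) over 9 pairs each. The main fit did not use this pairing, and only the alternative with the replicate block did. Counts were also simulated, with 100 genes changed at each fold, all with a mean above 100 reads. Every gene had the same dispersion (spread beyond counting noise), and same-numbered libraries did not deviate together. The simulation thus differed from these libraries, and its shares do not cover low genes. For EloB KD against Control KD (13764 genes), limma recovered 91% at 1.5-fold and 100% at 2-fold, with 10 false calls. For WT against Scrambled peptide (13105 genes) it recovered 88% and 100%, with 11 false calls. These shares were not determined for kinesins. Recovery at the spread of the mitotic kinesins, a median SD of 0.52 on the log2 scale in EloB KD, was not tested.

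The kinesin classes and gene lists were chosen with earlier results of these data known. Every kinesin, ELOB, ELOC, MKI67, TOP2A and, per list and comparison, the first 4 genes by adjusted p were open to naming. Exon lengths and overlaps came from GENCODE, in which all 42 kinesins were found, and promoters from RefSeq (GRCh38.p14).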

Additional observations from a re-analysis of the deposited data

How the results depend on the processing

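Of 35 single-kinesin calls, 25 held under every alternative but the threshold of 0.01, and 0 reversed (up to 20 alternatives each). That threshold was applied only to counts of genes and of class members called. Of 169 results not called, 55 passed under at least 1 alternative. The 9 mitotic calls for WT against Scrambled peptide held when any 1 library was left out. At a threshold of 0.01, calls numbered 1242 genes and 2 transport kinesins for EloB KD against Control KD, 3774 and 3 for EloC KD against Control KD, and 64 genes for WT against Scrambled peptide. With the replicate block (pairing by number), EloB KD against Control KD gave 4996 genes and 1 mitotic kinesin, EloC KD against Control KD 2 mitotic, EloB KD against EloC KD 2 mitotic, WT against Scrambled peptide 2122 genes and 2 transport, Mutant against Scrambled 1088 genes, 10 mitotic and 1 transport, and WT against Mutant 536 genes, 8 mitotic and 2 transport; the block changed no other kinesin call than those given with it above and within these counts. DESeq2 gave 552 genes and 1 transport kinesin for WT against Scrambled, 184 genes and 9 mitotic for Mutant against Scrambled, and 62 genes and 5 mitotic for WT against Mutant. The transport median was 0.2 for EloB KD against Control KD without a filter and 0.2 with quantile scaling; for EloB KD against EloC KD it was 0.06 and −0.03, and quantile scaling gave 1 mitotic call there. Fitting only the groups compared gave 3 mitotic calls for EloC KD. Without all replicate-1 libraries, EloB KD against Control KD gave 1276 genes, 2 transport calls and a transport median of 0.08, and EloC KD against Control KD and EloB KD against EloC KD 3 mitotic calls each. Without all replicate-2 libraries, Mutant against Scrambled gave 37 genes and 3 mitotic calls and WT against Mutant 21 genes. Leaving out 1 library at a time gave 0 to 1 mitotic calls, 2 to 4 transport calls and transport medians of 0.11 to 0.19 for EloB KD against Control KD, 1 to 5 mitotic calls for EloC KD against Control KD, 0 to 3 mitotic calls and transport medians of −0.13 to −0.04 for EloB KD against EloC KD, and 66 to 204, 0 to 1 and 0 to 2 genes for WT against Scrambled, Mutant against Scrambled and WT against Mutant. Where no value above shows it, the cause was not tested. With 3 libraries a group, small changes of low kinesins such as KIF4B, KIF12 and KIF17 were hard to detect.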
